A study of Mus musculus with 12 samples.

Results

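The peritoneal cells of mice that carried an ovarian tumour cell line were compared with those of mice that received no injection. ID8 cells derive from the ovarian surface epithelium of mice and grow as tumours in the peritoneum. The version used here carried Defb29, which encodes a beta-defensin, and Vegf-a, which encodes an angiogenic growth factor, and in the group described here also FSHR, the receptor of follicle-stimulating hormone. The 4 libraries labelled ID8 (defb29/Vegf-a) FSHR, called ID8-FSHR below, were set against the 4 libraries of mice with no injection, called uninjected, whose cells the labels name endogenous. These are 8 of the 12 libraries of the series, and the other 4 came from mice given ID8 (defb29/Vegf-a) without FSHR and are used where a difference between the tumour groups was tested. All mice were C57BL/6J. Tumour cells were injected into the peritoneal cavity, and on day 7 the cavity was washed with 8 mL of saline, the cells were pelleted and total RNA depleted of ribosomal RNA was sequenced.

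Several features limit what the groups model. The control mice had no injection of any kind, so the effect of tumour cells cannot be told apart from that of an injection. The protocol of the samples gives 5000000 injected cells and the text of the series gives 4000000. Since 2 numbers are missing from the names of the ID8-FSHR samples, its libraries are numbered 1 to 4 here in label order. The labels call the cell type a cell line, yet Ptprc, the leukocyte antigen CD45, was at 382 to 747 CPM (counts scaled to 1000000 per library) in the 4 ID8-FSHR libraries. The pellets thus held RNA of leukocytes as well as of tumour cells, and in such bulk RNA fewer cells of a type and less RNA per cell cannot be told apart. Fshr, the gene that names the group, had 0, 0, 0.0401 and 0.128 CPM in ID8-FSHR replicates 1 to 4, below the level at which genes were tested. Its row therefore did not check the FSHR label, and whether the count table takes reads of the introduced receptor was not tested.

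The resting peritoneal cavity of mice holds mainly large peritoneal macrophages and B cells, among them B-1 cells, a self-renewing population that makes natural antibody. Natural killer (NK) cells kill without prior priming, using granzymes and perforin, and secrete interferon-gamma. Type I interferons and interferon-gamma bind separate receptors and switch on overlapping sets of genes, which include antiviral proteins, guanylate-binding proteins and the chemokines Cxcl9 and Cxcl10, which attract T and NK cells.

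Of 55401 genes in the table, 16915 passed the filter on low counts and were tested. CPM values are counts scaled to 1000000 of the effective library size, means are given ± SD over 4 libraries, and fold changes are log2 values with their standard error (SE). P-values are those of the edgeR quasi-likelihood test, adjusted by the Benjamini-Hochberg method over all 16915 genes, and a gene was called at an adjusted p under 0.05. In ID8-FSHR, 5735 genes (33.9% of those tested) were higher than in uninjected lavage and 5178 (30.6%) were lower. Of these, 2332 (13.8%) were at least 4-fold higher and 752 (4.45%) at least 4-fold lower. The 4 libraries of one group lay entirely above or below those of the other for 9650 genes (57.0%). With such broad differences a call says little on its own, and a list near those shares moved no more often than tested genes in general. Groups of genes below are described by their counts and most by their median log2 fold change. Over all tested genes this median was 0.00, a value that depends on how the libraries are scaled.

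Library totals were 48355885 to 57636459 counts in ID8-FSHR and 50327658 to 57991979 in uninjected lavage, and 3 counts, the upper limit that a count of 0 allows, correspond to 0.0474 to 0.0653 CPM per library. Where all 4 uninjected libraries had 0 counts, a fold change is given as a lower bound, the ID8-FSHR mean over the highest of these limits. Depth therefore differed little between the groups. Within a group the lowest chi-square between 2 libraries was 14.2 per degree of freedom, so none was a repeat of another. The SD over 4 libraries on the log2 scale had a median of 0.215 in ID8-FSHR and 0.139 in uninjected lavage, and it was larger in ID8-FSHR for 69.0% of genes. Genes of the mitochondrial genome took 2.45% to 2.99% of the counts of the ID8-FSHR libraries.

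Genes of mitosis and of the interferon response are described below as groups whose members moved together over the ID8-FSHR libraries, and their promoters are shown here because short sequence motifs are known for both. The transcription factors of the interferon response are known to bind repeats of GAAA, written here as GAAANNGAA. Genes of the G2 and M phases of the cell cycle often carry a TTTGAA element together with CCAAT boxes. Each stretch is the 120 bases before the annotated transcript start in the RefSeq annotation of GRCm38.p6, printed in the direction of transcription, with every match to the named motifs on either strand in capitals. GAAANNGAA was searched in the promoters of Isg15, which encodes a ubiquitin-like antiviral protein, of Ifit1, which encodes a sensor of viral RNA, and of Gbp2, which encodes a guanylate-binding protein. TTTGAA and CCAAT were searched in the promoters of Cdk1, the kinase that drives entry into mitosis, and Top2a, the topoisomerase that untangles replicated DNA.
Isg15, chr4:156200819-156200938, minus strand: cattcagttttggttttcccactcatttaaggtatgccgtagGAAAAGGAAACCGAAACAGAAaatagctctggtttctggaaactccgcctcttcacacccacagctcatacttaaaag
Ifit1, chr19:34640769-34640888, plus strand: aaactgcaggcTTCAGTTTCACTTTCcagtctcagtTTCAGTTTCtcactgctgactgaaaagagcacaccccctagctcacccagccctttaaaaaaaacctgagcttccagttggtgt
Gbp2, chr3:142620543-142620662, plus strand: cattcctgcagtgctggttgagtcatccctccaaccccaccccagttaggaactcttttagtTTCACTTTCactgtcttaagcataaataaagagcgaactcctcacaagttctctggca
Cdk1, chr10:69352913-69353032, minus strand: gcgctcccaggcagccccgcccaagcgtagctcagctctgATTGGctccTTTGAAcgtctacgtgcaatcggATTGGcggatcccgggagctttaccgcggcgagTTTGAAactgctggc
Top2a, chr11:99024190-99024309, minus strand: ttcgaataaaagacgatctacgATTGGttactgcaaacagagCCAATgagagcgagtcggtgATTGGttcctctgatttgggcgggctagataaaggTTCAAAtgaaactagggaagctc

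Isg15 and Ifit1 each held 3 matches to GAAANNGAA, some of which overlapped each other, and Gbp2 held 1. Over the window from 250 bases before to 50 bases after the start, 13 of the 19 type I interferon response genes with a RefSeq promoter (68.4%) and 11 of the 15 interferon-gamma-inducible genes (73.3%) held the motif, against 9.76% of 27025 genes with a promoter in the table. Of 16 mitosis genes, 12 (75%) held both TTTGAA and CCAAT, against 7.97% of all genes. In the printed stretches no TTTGAA match overlapped a CCAAT match. A match describes the letters in this window and is not evidence of binding.

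RNA of the tumour cells was plain in every ID8-FSHR library. Of 18 markers of ID8 and mesothelial cells, 16 rose, all at least 4-fold, and the median log2 fold change was 6.42. The other 2, the keratin Krt7 and Lrrn4, were under 4 CPM in all 8 libraries, and Lrrn4 passed the test without ID8-FSHR replicate 1 (log2 fold change 0.90, adjusted p = 0.026). Defb29 was at 23.8, 8.41, 21.6 and 20.1 CPM in ID8-FSHR replicates 1 to 4 and had 0 counts in the 4 uninjected libraries, so it was at least 283-fold higher (adjusted p = 1.2e-07). Vegfa was at 75.9, 37.6, 75.8 and 59.3 CPM against 1.54 to 2.51 CPM (log2 fold change 5.00, SE 0.235, adjusted p = 3.4e-09). Both genes were lowest in replicate 2 and did not overlap the uninjected values. They check that RNA of the injected line was present, and they do not separate ID8-FSHR from ID8.

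Wt1, the transcription factor of mesothelial and ovarian surface cells, was at 465, 187, 428 and 403 CPM against 0.283 to 0.741 CPM (log2 fold change 9.86, SE 0.382, adjusted p = 1.7e-09). Krt19, an epithelial keratin, was at 421, 171, 314 and 372 CPM against 0.738 to 2.40 CPM. Msln, which encodes the mesothelial surface protein mesothelin, was at 25.4, 10.3, 25.9 and 21.1 CPM against 0.0369 to 0.355 CPM. In each of these 3 genes replicate 2 was again the lowest. It was the lowest of the 4 ID8-FSHR libraries in 17 of the 18 markers, and the mean level of the list stood 4.46 log2 units above uninjected lavage in replicate 2 and 5.38 to 5.64 in the others. The summed level of the list was 2082 to 6005 CPM in ID8-FSHR and 25.4 to 36.3 CPM in uninjected lavage.

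The 20 largest increases among well-expressed genes all had 0 counts in the 4 uninjected libraries. They were ranked by the fitted log2 fold change, which has no upper limit where a group is at 0. Such genes thus lead the ranking by the choice of measure, and their lower bounds can be smaller than the fold changes of genes left out. Mal2, which encodes a protein of transcytosis in epithelial cells, was at 241, 88.6, 211 and 211 CPM and at least 2873-fold higher. The developmental transcription factors Pax3 (36.8, 15.5, 32.1 and 29.4 CPM, at least 435-fold higher) and Hoxa13 (19.6, 4.69, 16.0 and 16.3 CPM, at least 217-fold higher) were among them. So were pancreatic lipase, Pnlip (18.5, 7.98, 20.2 and 17.3 CPM), and its relative Pnliprp1 (75.8, 17.0, 46.8 and 21.5 CPM). Pnliprp1 was high in replicate 1 and lowest in replicate 2. Raet1e, a ligand of the NK receptor NKG2D, was at 13.1, 6.05, 12.4 and 13 CPM and at least 170.3-fold higher.

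Replicate 2 stood below the other ID8-FSHR libraries across the genes that rose most. Each ID8-FSHR library was placed on a log2 scale with the uninjected mean at 0 and the mean of the other ID8-FSHR libraries at 1. On this scale the median position of the 2332 genes at least 4-fold higher was 1.10, 0.774, 1.08 and 1.06 in replicates 1 to 4. Bmp4, a ligand of the transforming growth factor family, was at 23.9, 5.99, 18.8 and 18.8 CPM, and Vangl1, a planar polarity protein, at 44.3, 13.6, 43.4 and 37.5 CPM. Both showed the same order, with replicate 2 apart from the others. Across the 752 genes at least 4-fold lower the median positions were 1.01, 0.904, 1.01 and 1.12, a narrower range in which replicate 2 again came nearest to uninjected lavage.

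**Figure D1:**
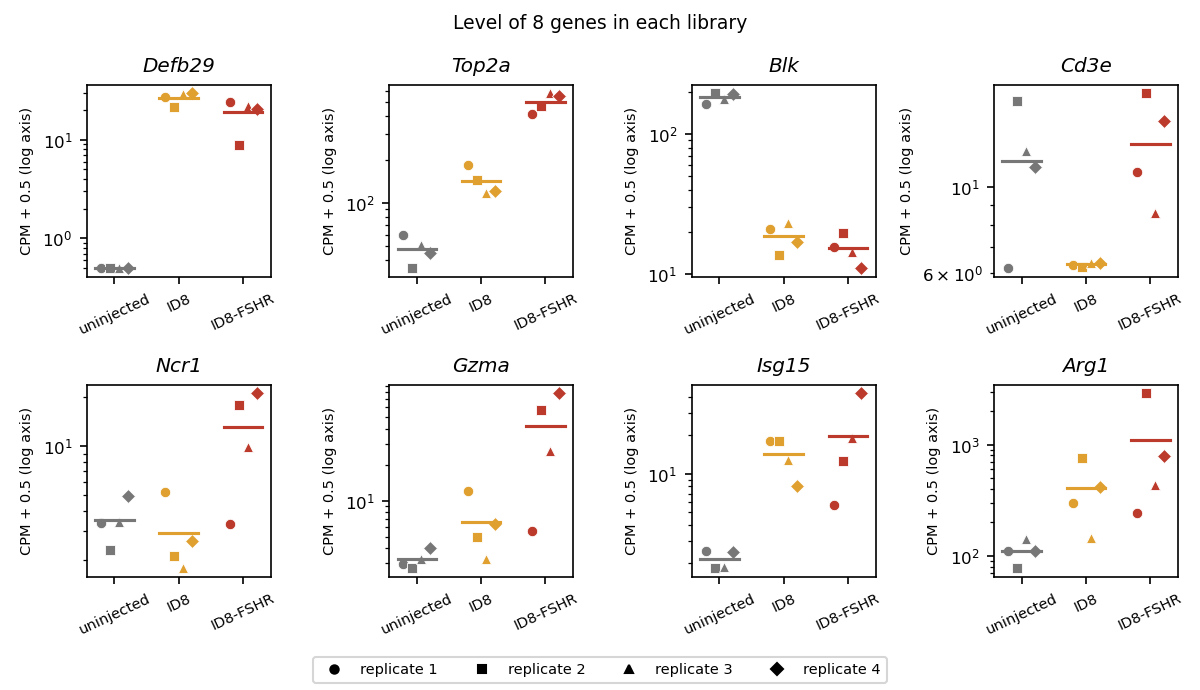
CPM of 8 genes in each library (symbols, 1 per replicate; lines, group means; log axes, CPM plus 0.5) in uninjected, ID8 and ID8-FSHR lavage. Defb29 is at 0 in all uninjected libraries, Blk is lower in both tumour groups, and Ncr1 and Isg15 in ID8-FSHR replicate 1 (2.83 and 5.23 CPM) lie far below those of replicate 4 (20.6 and 41.9 CPM).

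Genes of the extracellular matrix, of blood vessel growth and of the gonads rose with the tumour markers. Of 26 collagens and matrix proteases, 20 rose and 2 fell, with a median log2 fold change of 4.38. Of 18 angiogenic ligands and receptors, 11 rose and 2 fell (median 1.85), and of 19 gonadal steroid and cAMP genes, 13 rose and 3 fell (median 3.80). Mmp10, a matrix metalloproteinase, was at 4.38, 0.875, 3.19 and 6.53 CPM with 0 counts in uninjected lavage, at least 57.3-fold higher (adjusted p = 1.8e-05). Flt4, the receptor of the lymphatic growth factors VEGF-C and VEGF-D, was at 46.4, 31.6, 53.2 and 57.4 CPM against 0.808 to 1.40 CPM (log2 fold change 5.56, SE 0.233, adjusted p = 1.8e-09). Amhr2, the receptor of anti-Müllerian hormone, was at 410, 161, 345 and 289 CPM against 0.0369 to 0.283 CPM (log2 fold change 11.27, SE 0.43, and 12.10 without uninjected replicate 3). Flt4 and Amhr2 were lowest in replicate 2, as the tumour markers were.

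The gonadal list also held Nr5a1, the transcription factor that directs steroid-producing cells, and Star, which carries cholesterol into the mitochondria. Nr5a1 was at 37.1, 19.1, 34.4 and 37.9 CPM, against 0 in 3 uninjected libraries and 0.218 CPM in the fourth. Star was at 144, 54.8, 115 and 114 CPM against 1.30 to 1.72 CPM (log2 fold change 6.14, SE 0.278, adjusted p = 2.7e-09). Neither gene overlapped between the groups. Col1a1, the main fibrillar collagen of fibroblasts, behaved otherwise than the tumour markers: it was at 1.93, 7.18, 11.9 and 6.92 CPM against 0.369 to 1.5 CPM (log2 fold change 2.83, SE 0.576, adjusted p = 0.00081). Its lowest library was replicate 1, close to the uninjected range, and not replicate 2. Endothelial markers other than Pecam1, which leukocytes also express, stayed under 2 CPM in all 8 libraries, and Emcn and Cldn5 were at 0 in every one. Of 6 tested smooth muscle and fat markers 4 rose, with a summed level of 7.02 to 14.7 CPM in ID8-FSHR and 1.48 to 1.98 CPM in uninjected lavage. The part of such cells in the matrix genes was not tested.

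Genes of mitosis rose in all 4 ID8-FSHR libraries. All 20 of 20 tested G2/M genes rose at least 4-fold, their groups did not overlap, and their median log2 fold change was 3.40. Top2a was at 412, 472, 578 and 551 CPM in ID8-FSHR replicates 1 to 4 against 34.8 to 59.1 CPM (log2 fold change 3.42, SE 0.193, adjusted p = 1.3e-08). Cdk1 was at 52.4, 63.2, 68.3 and 71.6 CPM against 2.45 to 6.65 CPM (log2 fold change 3.83, SE 0.253). Replicate 1 was the lowest in both genes and far above the uninjected libraries. Ccnb1, which encodes cyclin B1, the partner of Cdk1, was at 38.6, 51.6, 57.2 and 57.2 CPM against 2.34 to 5.09 CPM. Mki67, which encodes the proliferation antigen Ki-67, was at 359, 572, 588 and 500 CPM against 63.0 to 103 CPM (log2 fold change 2.60, SE 0.187). In contrast to the tumour markers, replicate 1 was the lowest of the 4 ID8-FSHR libraries in 20 of the 20 genes, and replicate 2 was not low: the mean level of the list stood 2.86, 3.30, 3.49 and 3.48 log2 units above uninjected lavage in replicates 1 to 4.

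The mitosis genes were also higher in ID8-FSHR than in ID8. Against the ID8 libraries, 1021 genes (6.04% of those tested) were higher and 941 (5.56%) lower, and all 20 mitosis genes were among the higher ones, with a median log2 fold change of 1.91. Top2a averaged 503 ± 75.7 CPM in ID8-FSHR (SD, n = 4) and 141 ± 30.9 CPM in ID8 (log2 fold change 1.84, SE 0.181, adjusted p = 8.8e-05). Ccnb1 averaged 51.2 ± 8.79 CPM in ID8-FSHR and 11.9 ± 3.17 CPM in ID8 (log2 fold change 2.10, SE 0.234, adjusted p = 0.00015). The tumour markers did not share this direction: 8 of the 18 were lower than in ID8, among them Krt19 (320 ± 108 CPM against 705 ± 69.8 CPM, adjusted p = 0.024) and Msln (20.7 ± 7.25 CPM against 48.8 ± 5.30 CPM, adjusted p = 0.013). The count of lower markers was 5 without ID8 replicate 3 or ID8 replicate 4, and Krt19 lost its call without ID8 replicate 1, 3 or 4 or ID8-FSHR replicate 3 (adjusted p 0.054 to 0.073). All 20 mitosis genes kept their call against ID8 when any one library was left out.

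B cell genes fell in all 4 ID8-FSHR libraries. All 15 of 15 tested B cell markers were lower, 14 of them at least 4-fold, with groups that did not overlap and a median log2 fold change of -2.96. Blk, a tyrosine kinase that signals below the B cell receptor, was at 15.2, 19.3, 13.9 and 10.6 CPM against 164 to 195 CPM (log2 fold change -3.63, SE 0.195, adjusted p = 8.7e-09). Replicate 4 was the lowest library for Blk and in 14 of the 15 markers. Of 13 plasma cell and immunoglobulin genes, 10 fell. Ighm, the constant region of IgM, was at 412, 520, 440 and 322 CPM against 3278 to 4240 CPM (log2 fold change -3.14, SE 0.177, adjusted p = 1.2e-08). Jchain, which joins IgM and IgA into polymers, was at 0.548 to 1.74 CPM against 2.36 to 8.73 CPM (log2 fold change -2.67, SE 0.501, adjusted p = 0.00044). The exception in the list was Sdc1, the plasma cell marker syndecan-1, which epithelial cells also make. It rose, from 16.5 ± 5.6 CPM to 51.5 ± 10.2 CPM, and was lowest in replicate 2 of ID8-FSHR.

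Several of the largest decreases were genes that B-1 cells are known to express. Ighv11-2 and Igkv14-126 encode the variable regions of a B-1 cell receptor that binds phosphatidylcholine. Ighv11-2 was at 8.21, 6.27, 3.11 and 4.31 CPM against 112, 75.7, 86.8 and 115 CPM (log2 fold change -4.15, SE 0.272, adjusted p = 4.2e-08). Igkv14-126 was at 8.43, 7.34, 4.25 and 5.18 CPM against 123, 77.6, 92.6 and 124 CPM (log2 fold change -4.05, SE 0.278, adjusted p = 6.2e-08). Ighv11-2 lies at chr12:114048241-114048812 on the minus strand and Igkv14-126 at chr6:67896172-67896642 on the plus strand (GRCm38). Il5ra, the interleukin-5 receptor, which B-1 cells and eosinophils carry, was at 5.23, 8.14, 4.63 and 3.67 CPM against 69.8 to 90.8 CPM (log2 fold change -3.85, SE 0.242). Cacna1e, a calcium channel subunit, had the largest decrease among genes with a mean log2 CPM of 3 or more, predicted genes left out. It was at 12.8, 17.7, 17.1 and 10.1 CPM against 239 to 312 CPM (log2 fold change -4.22, SE 0.224, adjusted p = 7.9e-09). Immunoglobulin variable genes are alike in sequence, and the counting of reads with several matches is a step not given in the sources used here, so the values of single variable genes are uncertain.

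B cell homing genes were lower too. Cxcr5, the receptor that B cells carry for Cxcl13, was at 25.7, 31.0, 25.9 and 21.1 CPM against 192 to 282 CPM (log2 fold change -3.14, SE 0.181, adjusted p = 1.5e-08). Cxcl13, which attracts B-1 cells to the body cavities and is made there by macrophages, was at 193, 46.2, 61.4 and 17.0 CPM against 527 to 651 CPM (log2 fold change -2.89, SE 0.56, adjusted p = 0.00056). Cxcl13 had a wide spread, with replicate 1 highest, and its log2 fold change was -3.82 without that library. Btla, an inhibitory receptor abundant on B cells, fell from 128 ± 17.4 CPM to 20.2 ± 3.99 CPM.

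T cell markers showed little difference from uninjected lavage. Of 21 tested, 1 rose and 1 fell, with a median log2 fold change of 0.02. These values are relative to the whole library, in which all 15 pan-leukocyte genes fell (median log2 fold change -0.89, described below). They do not show whether T cell genes kept their share of the leukocyte RNA. Cd3e, a chain of the T cell receptor complex, was at 10.4, 17.0, 8.07 and 14.4 CPM against 5.68, 16.3, 11.9 and 10.8 CPM (log2 fold change 0.16, SE 0.276, adjusted p = 0.63). Cd4 and Cd8a, the coreceptors of helper and cytotoxic T cells, had log2 fold changes of -0.15 (SE 0.379) and -0.08 (SE 0.352). The groups overlapped in all 3 genes, and the uninjected libraries themselves were spread, replicate 1 being low: the level of the list ran from -0.79 to 0.70 log2 units around its mean in uninjected lavage and from -0.44 to 0.48 in ID8-FSHR. The member that rose was Foxp3, the transcription factor of regulatory T cells, at 4.52, 7.88, 4.29 and 5.77 CPM against 1.37 to 1.86 CPM (log2 fold change 1.78, SE 0.272, adjusted p = 7.9e-05). The member that fell was Cd2, which mouse B cells also express, at 27.1 to 45.8 CPM against 154 to 220 CPM.

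The T cell list stood differently against ID8. There, 10 of the 21 markers were higher in ID8-FSHR, with a median log2 fold change of 1.08. Cd3e was at 12.5 ± 4.00 CPM in ID8-FSHR and 5.81 ± 0.0641 CPM in ID8 (log2 fold change 1.10, SE 0.281, adjusted p = 0.025), and Cd28, a costimulatory receptor, at 2.59 ± 0.742 CPM and 0.930 ± 0.279 CPM (log2 fold change 1.47, SE 0.285, adjusted p = 0.0061). This count was not stable: it was 3 of 21 without ID8-FSHR replicate 2 or 4 or ID8 replicate 2, 3 or 4, and 6 without ID8 replicate 1, and Cd3e lost its call in each of these fits (adjusted p 0.052 to 0.071). It was also 3 of 21 when libraries were scaled to the summed counts of 15 pan-leukocyte genes.

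NK and cytotoxic genes were higher in 3 of the 4 ID8-FSHR libraries and near the uninjected level in replicate 1. Of 24 tested, 19 were higher than in uninjected lavage and the median log2 fold change was 1.91. Ncr1, the NK receptor NKp46, was at 2.83, 17.4, 9.32 and 20.6 CPM against 2.88, 1.81, 2.91 and 4.42 CPM (log2 fold change 2.06, SE 0.553, adjusted p = 0.0054). Gzma, which encodes granzyme A, was at 5.11, 56.2, 25.5 and 78.3 CPM against 2.45, 2.25, 2.79 and 3.57 CPM (log2 fold change 3.90, SE 0.689, adjusted p = 0.00027). Replicates 2 to 4 lay above every uninjected library in both genes, while replicate 1 lay within the uninjected range for Ncr1 and just above it for Gzma. The groups overlapped in 16 of the 24 genes, while over all tested genes 57.0% did not overlap.

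Gzmb, which encodes granzyme B, was at 1.74, 19.9, 10.9 and 31.7 CPM against 0.443 to 1.33 CPM (log2 fold change 4.33, SE 0.778, adjusted p = 0.00031). Prf1, which encodes perforin, was at 3.35, 21.7, 12.9 and 33.7 CPM against 1.82 to 3.18 CPM (log2 fold change 2.77, SE 0.622, adjusted p = 0.0017). Both had the order of Ncr1, with replicate 4 highest and replicate 1 lowest. Ifng, interferon-gamma itself, was at 0.522, 3.36, 1.18 and 3.61 CPM against 0.369 to 0.828 CPM (log2 fold change 1.94, SE 0.596, adjusted p = 0.012). Over the 24 genes replicate 1 was the lowest ID8-FSHR library in 23 and replicate 4 the highest in 21. Replicate 1 exceeded every uninjected library in 8 genes, and replicates 2, 3 and 4 in 24, 21 and 24. The level of the list stood 0.16, 2.00, 1.25 and 2.32 log2 units above uninjected lavage, and its summed level was 167 to 566 CPM in ID8-FSHR and 81.7 to 119 CPM in uninjected lavage.

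Against ID8, 19 of the 24 NK genes were higher and 1 was lower, with a median log2 fold change of 2.04. Ncr1 averaged 12.5 ± 8.02 CPM in ID8-FSHR and 2.45 ± 1.58 CPM in ID8 (log2 fold change 2.34, SE 0.558, adjusted p = 0.019). The count of higher genes was 10 without ID8-FSHR replicate 2, 8 without ID8-FSHR replicate 4, and 10, 8 and 7 without ID8 replicates 2, 3 and 4. It was 23 without ID8-FSHR replicate 1 and 11 with scaling to pan-leukocyte counts. Ncr1 lost its call without ID8-FSHR replicate 2 or 4 or ID8 replicate 3 or 4 (adjusted p 0.056 to 0.064).

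Checkpoint and costimulatory genes did not move as 1 group: of 26 tested, 6 rose and 12 fell, with a median log2 fold change of -0.16. Tnfrsf9, the activation receptor 4-1BB, was at 1.14, 8.06, 5.39 and 8.80 CPM against 0.789 to 1.29 CPM (log2 fold change 2.48, SE 0.546, adjusted p = 0.0014). Pdcd1, which encodes PD-1, was at 0.490, 3.46, 0.761 and 3.71 CPM against 0.263 to 0.664 CPM (log2 fold change 2.29, SE 0.644, adjusted p = 0.0072). Lag3, an inhibitory receptor of T and NK cells, was at 0.965, 3.94, 1.70 and 3.32 CPM against 0.572 to 1.09 CPM (log2 fold change 1.54, SE 0.403, adjusted p = 0.0046). In all 3 genes replicate 1 lay within the uninjected range and replicates 2 and 4 were highest. Cd276, the ligand B7-H3, differed in its order, at 16.9, 5.67, 12.1 and 18.5 CPM against 0.849 to 1.24 CPM, lowest in replicate 2 like the tumour markers (log2 fold change 3.63, SE 0.318, adjusted p = 5.4e-07).

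Cd274, which encodes the PD-1 ligand PD-L1 and is inducible by interferon-gamma, was at 28.9, 99.3, 86.4 and 137 CPM against 64.1, 65.4, 77.3 and 79.0 CPM. Its mean difference was small (log2 fold change 0.30, SE 0.418, adjusted p = 0.55) because the libraries lay on both sides: replicate 1 was below every uninjected library and replicates 2 to 4 above all of them. Ctla4 was at 1.06, 2.80, 0.881 and 2.57 CPM against 2.92 to 4.81 CPM and was lower than in uninjected lavage (log2 fold change -1.10, SE 0.417, adjusted p = 0.034), yet higher than in ID8 (0.508 ± 0.275 CPM, log2 fold change 1.83, SE 0.447, adjusted p = 0.021). The lower call did not hold without ID8-FSHR replicate 1 or 3 or uninjected replicate 1, 3 or 4 (adjusted p 0.061 to 0.092), and the higher one without ID8-FSHR replicate 4 or ID8 replicate 3 or 4 (adjusted p 0.061 to 0.071).

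Genes of the resident large peritoneal macrophages were lower on the whole. Of 19 tested, 13 fell and 2 rose, with a median log2 fold change of -1.11. Timd4, a receptor by which resident macrophages take up dying cells, was at 335, 458, 424 and 569 CPM against 743 to 884 CPM (log2 fold change -0.84, SE 0.144, adjusted p = 0.00021). Adgre1, the macrophage antigen F4/80, was at 1015, 1637, 1158 and 849 CPM against 1484 to 1714 CPM (log2 fold change -0.44, SE 0.166, adjusted p = 0.034), and replicate 2 reached into the uninjected range. It did not pass without ID8-FSHR replicate 1, 3 or 4 or uninjected replicate 1, 3 or 4 (adjusted p 0.056 to 0.10). Outside this list, Apoe, a lipid carrier abundant in macrophages, was at 2054, 834, 1253 and 914 CPM against 8607 to 11248 CPM (log2 fold change -3.00, SE 0.286, adjusted p = 1.2e-06). The 2 members of the list that rose were Gata6, the transcription factor that defines these macrophages (169, 144, 159 and 133 CPM against 90.1 to 109 CPM, log2 fold change 0.58, SE 0.0836, adjusted p = 4.8e-05), and Aspa, an aspartoacylase (45.9, 91.6, 57.6 and 52.2 CPM against 32.8 to 36.8 CPM, log2 fold change 0.80, SE 0.215).

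The pan-leukocyte genes give the setting of these decreases. All 15 of 15 fell, with a median log2 fold change of -0.89, and they took 0.452%, 0.691%, 0.482% and 0.487% of the counts in ID8-FSHR replicates 1 to 4 against 0.830% to 0.859% in uninjected lavage. Scaled to these genes instead of the whole library, 7 large peritoneal macrophage markers were higher and 5 lower than in uninjected lavage, and Adgre1 and Timd4 turned to log2 fold changes of 0.43 and 0.07. The B cell decrease was present under both scalings: 14 of the 15 B cell markers were still lower with scaling to pan-leukocyte genes. Pan-leukocyte counts include RNA of B cells, so this scaling is not independent of the B cell decrease.

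Monocyte and macrophage activation genes went in both directions. Of 20 monocyte and small macrophage markers 5 rose and 6 fell, with a median log2 fold change of -0.49. Over all tested genes 33.9% rose and 30.6% fell, so the monocyte counts are near those of genes in general. Of 23 genes known from tumour-associated macrophages 7 rose and 11 fell (median -0.07). Arg1, arginase-1, was at 245, 2899, 435 and 784 CPM against 77.5 to 143 CPM (log2 fold change 3.31, SE 0.709, adjusted p = 0.0012). Ly6c2, a marker of inflammatory monocytes, was at 5.12, 23.3, 17.5 and 47.4 CPM against 4.62 to 7.60 CPM (log2 fold change 1.87, SE 0.5, adjusted p = 0.0053). Arg1 peaked in replicate 2 and Ly6c2 in replicate 4, and Ly6c2 in replicate 1 lay within the uninjected range. The log2 fold change of Arg1 was 2.25 without replicate 2 and that of Ly6c2 1.27 without replicate 4. Marco, a scavenger receptor, was at 382, 936, 835 and 1112 CPM against 235 to 331 CPM (log2 fold change 1.43, SE 0.275, adjusted p = 0.00051). Spp1, osteopontin, was at 12.3, 46.6, 15.4 and 12 CPM against 0.592, 0.959, 1.17 and 10.7 CPM, where the fourth uninjected library came close to the tumour group. Its log2 fold change was 2.69 (adjusted p = 0.011), 4.57 without that library and 2.08 without ID8-FSHR replicate 2, where it did not pass (adjusted p = 0.064).

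F13a1, a transglutaminase found in monocytes and some macrophages, was among the largest decreases, at 48.8, 25.5, 35.5 and 10.7 CPM against 283 to 561 CPM (log2 fold change -3.87, SE 0.425, adjusted p = 4.3e-06). Ccr2, the chemokine receptor of monocytes, was at 147, 303, 186 and 216 CPM against 208 to 351 CPM and did not pass the test (log2 fold change -0.40, SE 0.199, adjusted p = 0.096), though it did without ID8-FSHR replicate 2 (adjusted p = 0.021) or uninjected replicate 2 (adjusted p = 0.040). Trem2, a lipid-sensing receptor, fell (log2 fold change -1.21, SE 0.333, adjusted p = 0.0066). Without ID8-FSHR replicate 2, the monocyte list had 3 members higher and 12 lower, and without uninjected replicate 1 or 3 it had 3 higher.

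Dendritic cell, mast cell and neutrophil markers each held genes that rose and genes that fell. Of 15 dendritic cell markers 4 rose and 6 fell (median log2 fold change -0.13), beside 33.9% and 30.6% of all tested genes. Zbtb46, a transcription factor of conventional dendritic cells, rose from 7.70 ± 1.5 CPM to 22.0 ± 3.22 CPM. Cd209a fell from 51.0 ± 16.5 CPM to 9.92 ± 5.17 CPM. Of 12 mast cell markers 8 fell, among them the protease gene Cpa3 (252, 230, 160 and 134 CPM against 294 to 445 CPM, log2 fold change -0.94, SE 0.204, adjusted p = 0.0013), while the receptor gene Kit rose (log2 fold change 1.11, SE 0.235, adjusted p = 0.0011). By edgeR's test, none of the mast cell markers was called lower when libraries were scaled to pan-leukocyte counts. Of 14 neutrophil markers 1 rose (4 without uninjected replicate 2) and 2 fell, and S100a8, a calcium-binding protein of neutrophils, was at 2.81 to 9.63 CPM against 1.13 to 16.8 CPM. Haemoglobin RNA, a trace of red blood cells, varied by library: Hbb-bs was at 6.96, 3.68, 257 and 0.931 CPM in ID8-FSHR and 0.513, 6.48, 3.41 and 59.9 CPM in uninjected lavage. Replicate 3 of one group and replicate 4 of the other were thus high.

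**Figure D2:**
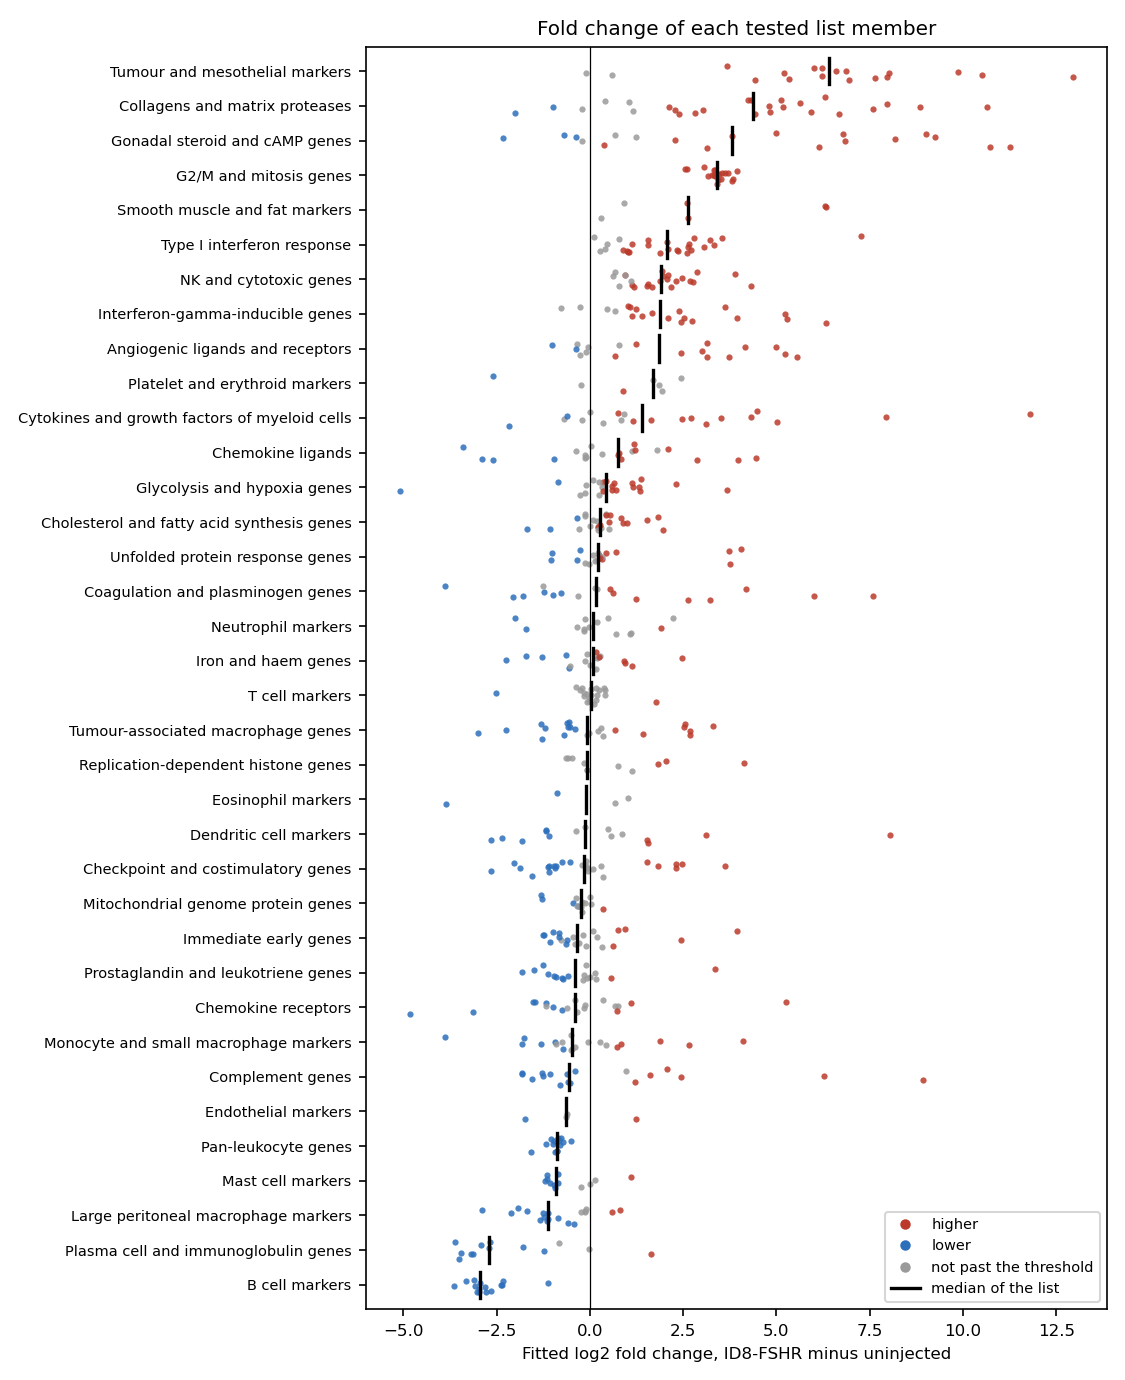
Log2 fold change of ID8-FSHR against uninjected lavage for the tested members of each gene list (points, 1 per gene; vertical bars, list medians; fitted values of genes at 0 in uninjected lavage depend on the fit and are no bound). The medians run from 6.42 for the tumour markers and 3.40 for mitosis to -2.96 for B cells, around a median of 0.00 over all tested genes.

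Interferon response genes, like the NK genes, were high in ID8-FSHR replicates 2 to 4 and on the whole far closer to the uninjected level in replicate 1. Of 27 type I interferon response genes, 22 rose, with a median log2 fold change of 2.07. Of 20 interferon-gamma-inducible genes, 16 rose, with a median of 1.87. Isg15 was at 5.23, 12, 18.4 and 41.9 CPM against 1.35 to 2.01 CPM (log2 fold change 3.54, SE 0.542, adjusted p = 8.2e-05). Ifit1 was at 6.53, 23.2, 28.2 and 81.3 CPM against 2.96 to 4.55 CPM (log2 fold change 3.33, SE 0.667, adjusted p = 0.00072). Replicate 1 was the lowest and replicate 4 the highest in both genes, and no ID8-FSHR library overlapped the uninjected range. Without replicate 4 their log2 fold changes were 2.83 and 2.48.

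In other members replicate 1 ran from within the uninjected range to far above it. Rsad2, the antiviral enzyme viperin, was at 5.01, 31.7, 24.8 and 71.4 CPM against 3.27, 4.35, 5.90 and 7.95 CPM in uninjected lavage in ascending order (log2 fold change 2.63, SE 0.639, adjusted p = 0.0029). Irf7, a transcription factor that amplifies the response, was at 33.0, 122, 109 and 255 CPM against 22.7 to 28.5 CPM (log2 fold change 2.34, SE 0.446, adjusted p = 0.0005). Siglec1, an interferon-inducible lectin of macrophages, was at 37.2, 283, 239 and 337 CPM against 19.6 to 49.4 CPM (log2 fold change 2.79, SE 0.524, adjusted p = 0.00044). Replicate 1 lay within the uninjected range for Rsad2 and Siglec1 and slightly above it for Irf7. Ifi44, an interferon-induced protein of little known function, had the largest increase of the list, at 4.52, 15.0, 33.3 and 71.5 CPM against 0.111 to 0.276 CPM (log2 fold change 7.26, SE 0.874, adjusted p = 9.8e-06). Replicate 4 weighed in these means too: without it the log2 fold change was 1.94 for Rsad2 and 6.44 for Ifi44.

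The interferon-gamma-inducible genes repeated this order. Cxcl9 was at 2.18, 16.8, 8.41 and 27.5 CPM against 0.202 to 0.610 CPM (log2 fold change 5.29, SE 0.755, adjusted p = 4.5e-05). Cxcl10 was at 3.07, 13.2, 13.2 and 52.4 CPM against 0.174 to 0.364 CPM (log2 fold change 6.32, SE 0.948, adjusted p = 6.9e-05). Both chemokine genes were above every uninjected library in all 4, least so in replicate 1, and without replicate 4 their log2 fold changes were 4.70 and 5.26. Iigp1, a GTPase that attacks the vacuoles of parasites, was at 28.9, 202, 202 and 437 CPM against 2.55 to 12.4 CPM (log2 fold change 5.22, SE 0.953, adjusted p = 0.00043), with 4.63 without ID8-FSHR replicate 4 and 5.87 without uninjected replicate 4. Gbp2 was at 168, 510, 486 and 1120 CPM against 111 to 155 CPM (log2 fold change 2.09, adjusted p = 0.0051), with replicate 1 just above the uninjected range. Ciita, the master regulator of major histocompatibility class II genes, did not pass the test and lay on both sides of the control, at 47.5, 114, 79.1 and 116 CPM against 91.0 to 132 CPM.

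Replicate 1 was the lowest ID8-FSHR library in 27 of the 27 type I interferon genes and in 19 of the 20 interferon-gamma-inducible genes, and replicate 4 was the highest in 27 and 18. In replicate 1, 11 of the 27 type I genes lay above every uninjected library and 8 below every one. In replicates 2, 3 and 4, 27, 25 and 27 of them lay above. Of the 20 interferon-gamma-inducible genes, 10 lay above in replicate 1 and 6 below. In each of replicates 2, 3 and 4, 18 of these lay above. The level of the type I list stood 0.29, 1.72, 1.73 and 2.73 log2 units above uninjected lavage in replicates 1 to 4. That of the interferon-gamma list stood at 0.44, 2.08, 1.89 and 2.84. The highest uninjected library was at 0.20 for the type I list and 0.21 for the interferon-gamma list. Replicate 1 had the largest total of its group, 57636459 counts, and its tumour markers stood at 5.58, within the range of the other libraries. Its pan-leukocyte genes were the lowest of the group in 12 of 15, with a list level of -1.27 against -0.48 to -1.06 in the others, and their part in the interferon and NK levels was not tested. Without replicate 1, 26 of the 27 type I genes and 18 of the 20 interferon-gamma-inducible genes were called higher than in uninjected lavage, and without replicate 4, 21 and 13. Since these are the lowest and the highest library, the order of these counts is given by the choice and is a description only.

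**Figure D3:**
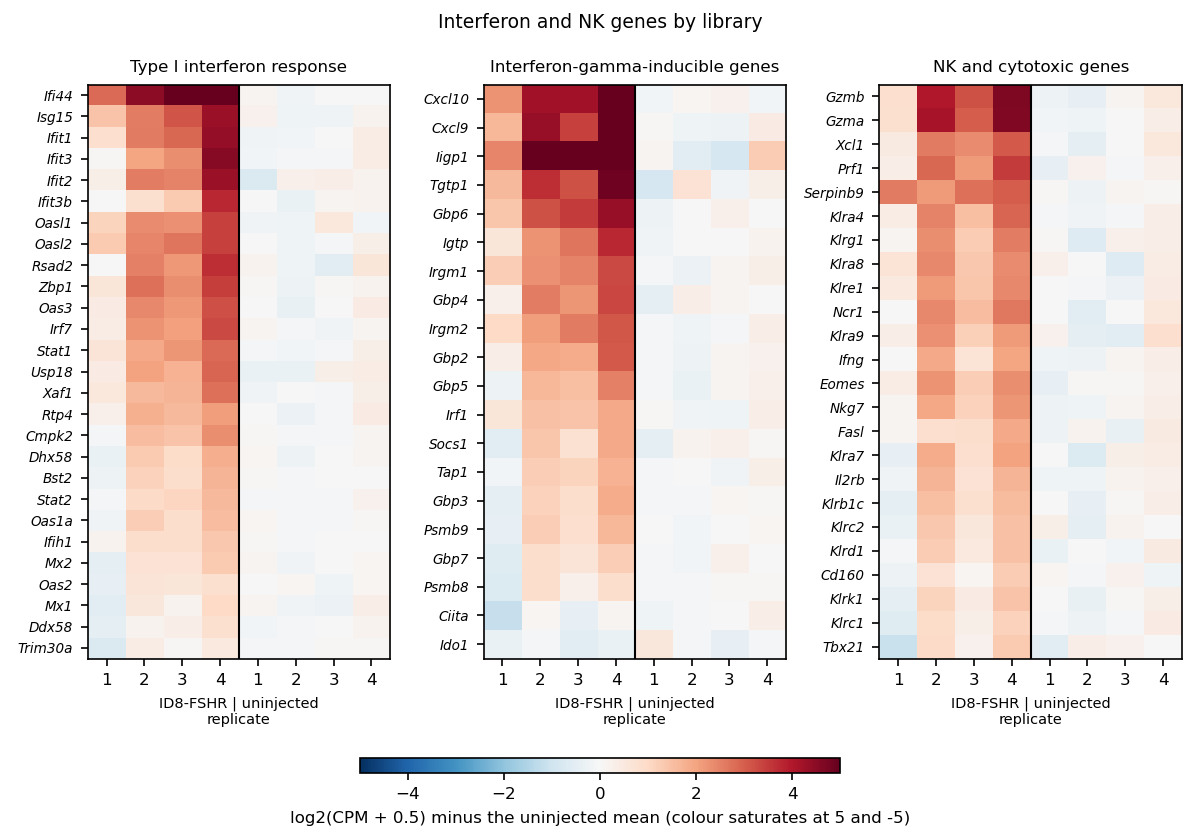
Log2(CPM + 0.5) minus the uninjected mean for each tested type I interferon, interferon-gamma-inducible and NK gene (lines) in the 4 uninjected and 4 ID8-FSHR libraries (columns). Of the ID8-FSHR columns, that of replicate 1 is on the whole the closest to the uninjected colours (list levels of 0.29, 0.44 and 0.16). The column of replicate 4 is the strongest (2.73, 2.84 and 2.32).

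Against ID8, no interferon gene was called. By edgeR's quasi-likelihood test 0 of 27 type I genes and 0 of 20 interferon-gamma-inducible genes were higher in ID8-FSHR, 3 and 10 had an unadjusted p under 0.05, and DESeq2 called 1 and 2. Isg15 was at 19.4 ± 16.0 CPM in ID8-FSHR and 13.7 ± 4.80 CPM in ID8 (log2 fold change 0.50, SE 0.476, adjusted p = 0.52). Cxcl9 was at 13.7 ± 11 CPM and 3.52 ± 1.83 CPM (log2 fold change 1.96, SE 0.613, adjusted p = 0.057). These means depend on replicates 1 and 4, the lowest and the highest library, and leaving either out moves them in a direction that the choice gives. Without replicate 1, 12 of the 27 type I genes and 13 of the 20 interferon-gamma-inducible genes were called higher than in ID8. Without replicate 4 the log2 fold change of Isg15 against ID8 was -0.21 (adjusted p = 0.78) and that of Cxcl9 1.37 (adjusted p = 0.18).

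Chemokine and cytokine genes went in both directions. Of 21 chemokine ligands, 9 rose and 4 fell, and of 20 cytokines and growth factors of myeloid cells, 12 rose and 2 fell (median log2 fold change 1.41). Ccl2, which recruits monocytes, was at 4.92, 8.36, 5.37 and 9.44 CPM against 2.90 to 4.93 CPM (log2 fold change 0.85, SE 0.277, adjusted p = 0.017), a call lost without ID8-FSHR replicate 4 (adjusted p = 0.059) or uninjected replicate 1 (adjusted p = 0.051). Ccl5, which recruits T and NK cells, was at 7.15, 25, 13.8 and 28.6 CPM against 9.24 to 17.8 CPM and did not pass the test. Replicates 2 and 4 were above the uninjected range for Ccl5 and replicate 1 was below it. Cxcl12, a chemokine that retains leukocytes in tissues, was at 4.10, 2.94, 4.81 and 2.46 CPM against 32.1 to 43.1 CPM (log2 fold change -3.39, SE 0.286, adjusted p = 3.8e-07).

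Il34, a ligand of the macrophage growth factor receptor, was at 7.83, 4.67, 7.83 and 12.4 CPM with 0 counts in uninjected lavage, at least 125-fold higher (adjusted p = 9.5e-08). Csf1, the other ligand of that receptor, was at 43.9, 34.1, 55.3 and 56.3 CPM against 13.3 to 18.4 CPM (log2 fold change 1.65, SE 0.156, adjusted p = 1.1e-06). Both were lowest in replicate 2. Il6 was at 8.65, 20.4, 10.4 and 9.13 CPM against 1.42 to 2.37 CPM (log2 fold change 2.72, SE 0.4, adjusted p = 5.7e-05), highest in replicate 2. Il12a, a subunit of interleukin-12, fell (0.648, 0.259, 0.300 and 0.256 CPM against 0.908 to 2.16 CPM, log2 fold change -2.15, SE 0.485, adjusted p = 0.0017). Of 19 chemokine receptors, 3 rose (5 without ID8-FSHR replicate 1) and 7 fell. The largest decrease was Ackr2, a scavenger of inflammatory chemokines, at 0.279 to 0.566 CPM against 8.36 to 15.0 CPM (log2 fold change -4.83, SE 0.472, adjusted p = 1.4e-06).

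Complement genes went in both directions, 6 of 18 higher and 11 lower (median log2 fold change -0.56). C3, the central component, was at 665, 2676, 1523 and 2049 CPM against 402 to 443 CPM (log2 fold change 2.06, SE 0.329, adjusted p = 0.00011). C1s1, a protease of the classical pathway, was at 209, 152, 294 and 539 CPM against 0.498 to 0.750 CPM (log2 fold change 8.92, SE 0.55, adjusted p = 2.6e-08). C4b, the classical pathway component C4, fell, at 3038, 3000, 3206 and 2540 CPM against 6648 to 7858 CPM (log2 fold change -1.28, SE 0.107, adjusted p = 3.6e-07). C3 was lowest in replicate 1 and C1s1 in replicate 2, whereas C4b differed little within the group. C3 was higher than in ID8 as well (654 ± 172 CPM, log2 fold change 1.40, SE 0.322, adjusted p = 0.016), though not without ID8-FSHR replicate 2 or ID8 replicate 3 or 4 (adjusted p 0.054 to 0.062).

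Of 18 coagulation and plasminogen genes, 8 rose and 6 fell (median log2 fold change 0.16), beside 33.9% and 30.6% of all tested genes. F3, tissue factor, which starts clotting, was at 12.8, 4.58, 12 and 13.4 CPM against 0.485 to 2.27 CPM (log2 fold change 3.22, SE 0.439, adjusted p = 3.0e-05). Plat, tissue plasminogen activator, was at 96.7, 41.0, 82.5 and 79.6 CPM against 0.0592 to 0.525 CPM (log2 fold change 7.60, SE 0.394). Both were lowest in replicate 2. Of 18 prostaglandin and leukotriene genes, 2 rose (4 without ID8-FSHR replicate 2) and 9 fell. Ptgs2, the inducible cyclooxygenase, was at 4.98, 4.87, 5.49 and 5.11 CPM against 0.257 to 0.741 CPM (log2 fold change 3.36, SE 0.275, adjusted p = 3.0e-07), even over the 4 libraries. Alox15, the lipoxygenase of resident peritoneal macrophages, fell, at 2795, 2508, 2427 and 1092 CPM against 4930 to 6237 CPM (log2 fold change -1.26, SE 0.232, adjusted p = 0.00038). Thbs1, thrombospondin-1, an inhibitor of blood vessel growth that macrophages and platelets make, also fell, at 2171, 2339, 1740 and 497 CPM against 2973 to 3845 CPM (log2 fold change -1.0, SE 0.341, adjusted p = 0.02). Replicate 4 was by far the lowest in both.

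Metabolic genes moved by smaller amounts. Of 23 glycolysis and hypoxia genes, 14 rose and 2 fell, with a median log2 fold change of 0.43. Ldha, lactate dehydrogenase A, was at 428, 722, 424 and 582 CPM against 320 to 376 CPM (log2 fold change 0.65, SE 0.167, adjusted p = 0.004). Ndrg1, a hypoxia-inducible gene, was at 103, 52.8, 91.1 and 99.7 CPM against 4.73 to 10.1 CPM (log2 fold change 3.68, SE 0.251). Adm, adrenomedullin, also hypoxia-inducible, fell, at 0.854, 0.318, 0.321 and 0.237 CPM against 12.4 to 18.7 CPM (log2 fold change -5.09, SE 0.37, adjusted p = 1.0e-07, and -5.68 without replicate 1). These 2 hypoxia-inducible genes thus went in opposite directions, and neither overlapped between the groups.

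Of 25 cholesterol and fatty acid synthesis genes, 11 rose and 3 fell (median log2 fold change 0.26). Scd1, a desaturase, was at 145, 119, 104 and 119 CPM against 335 to 437 CPM (log2 fold change -1.67, SE 0.113, adjusted p = 5.6e-08), and Elovl6, an elongase, rose by a log2 fold change of 1.95 (SE 0.11, adjusted p = 1.3e-08). Of 19 unfolded protein response genes, 8 rose (5 without uninjected replicate 3 or 4) and 4 fell (2 without ID8-FSHR replicate 4). Asns, asparagine synthetase, a target of amino acid stress, was at 21.4, 12.1, 15.2 and 25.9 CPM against 1.22 to 1.55 CPM (log2 fold change 3.75, SE 0.225, adjusted p = 2.1e-08). Of 18 iron and haem genes 6 rose and 5 fell, near the shares over all tested genes (median log2 fold change 0.08). Tfrc, the transferrin receptor, which dividing cells carry, was at 59.7, 68.8, 52.8 and 67.4 CPM against 26.7 to 37.6 CPM (log2 fold change 0.94, SE 0.139, adjusted p = 5.9e-05), and was higher than in ID8 too (34.4 ± 5.89 CPM, adjusted p = 0.0018).

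Immediate early genes, which respond within minutes to handling of tissue, did not rise as a group: of 22, 5 rose and 8 fell. Over all tested genes 33.9% rose and 30.6% fell. Fos was at 236, 169, 86.6 and 58.3 CPM against 132 to 299 CPM and did not pass the test, but fell when replicate 1 was left out (log2 fold change -1.15, adjusted p = 0.031). The heat shock gene Hspa1b was at 31.7, 15.2, 2.56 and 3.45 CPM in ID8-FSHR and 207, 6.31, 15.7 and 73.2 CPM in uninjected lavage, a wide spread within each group. Of 13 protein genes of the mitochondrial genome, 1 rose and 4 fell. Of 11 tested histone genes of the replication-dependent class 3 rose (5 without uninjected replicate 4), and their messages lack poly(A) tails, which the ribosomal depletion used here does not select for.

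The spread within the ID8-FSHR group did not follow 1 order of libraries. Replicate 2 was low in tumour genes and high in leukocyte genes: it was the highest of the 4 in 15 of 15 pan-leukocyte genes, 21 of 26 checkpoint genes and 16 of 21 T cell markers. Replicate 1 was low in interferon, NK and mitosis genes, and the lowest in 12 of 15 pan-leukocyte genes. Replicate 4 was the highest in 27 of 27 type I interferon genes and 21 of 24 NK genes. It was the lowest in 14 of 15 B cell markers and 15 of 19 large peritoneal macrophage markers. Chil3, Mgl2, Arg1 and Retnla, which macrophages are known to express in response to interleukin-4, are described because they were among the 10 genes farthest above the other libraries in replicate 2, so their peak there is given by that choice. Chil3, which encodes the chitinase-like protein Ym1, was at 5.16, 392, 15.2 and 10.1 CPM against 3.76 to 9.65 CPM in uninjected lavage (log2 fold change 4.11, SE 1.29, adjusted p = 0.015). Mgl2, a lectin, was at 17.1, 111, 10.1 and 8.23 CPM against 15.2 to 42.3 CPM, and Arg1 (2899 CPM in replicate 2) was highest there too. Retnla, which encodes the resistin-like protein Fizz1, was highest in replicate 2 as well, at 203, 468, 113 and 64.3 CPM, but within the uninjected range of 332 to 650 CPM. The increase of Chil3 was that of a single library: without replicate 2 its log2 fold change was 0.83 (adjusted p = 0.27).

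Acod1, the enzyme that makes itaconate in activated macrophages, was among the genes with the widest spread, at 4.63, 60.6, 41.0 and 91.1 CPM against 0.572 to 1.23 CPM (log2 fold change 5.65, SE 0.881, adjusted p = 9.6e-05), lowest in replicate 1 and highest in replicate 4. Single libraries otherwise differed from the mean of the other 3 in few genes. Among 9719 genes with enough counts for this comparison, 3 were at least 4-fold above and 28 at least 4-fold below it in replicate 1, 7 and 0 in replicate 2, 3 and 2 in replicate 3, and 9 and 6 in replicate 4. The correlation of log2 CPM between libraries, a description over genes, was 0.978 to 0.992 within ID8-FSHR, 0.993 to 0.995 within uninjected lavage and 0.866 to 0.916 between the groups.

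**Figure D4:**
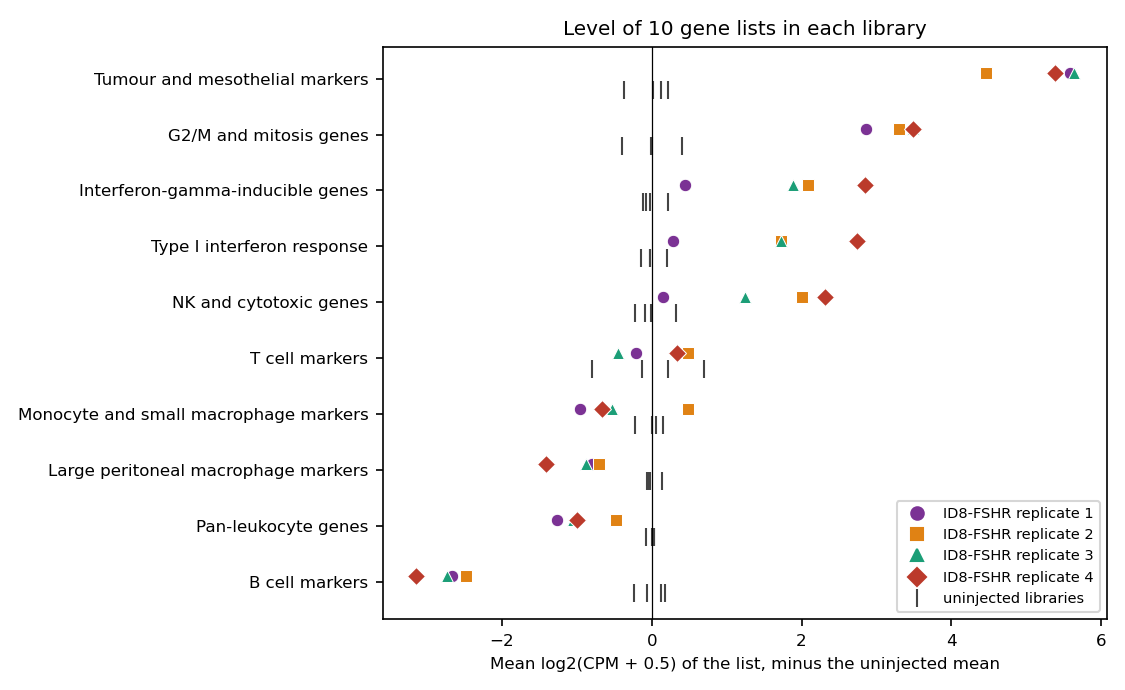
Mean level of gene lists (mean log2(CPM + 0.5) of the tested members minus the uninjected mean) in each ID8-FSHR library (symbols, 1 per replicate) and each uninjected library (vertical ticks). Replicate 2 is the lowest ID8-FSHR library for tumour markers (4.46) and the highest for pan-leukocyte genes (-0.48), and replicate 1 is the lowest for interferon and NK genes.

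The counts that lead these comparisons were computed again without replicates 1 and 2 of ID8-FSHR, 2 of the libraries that stood apart. Replicate 1 was the lowest ID8-FSHR library in most interferon and NK genes, and replicate 2 in most tumour markers. Leaving them out thus raises the level of those lists by the choice, and the counts are a description only. Replicate 4, the highest in most interferon and NK genes, was kept. Without both, 6378 genes were higher and 4353 lower than in uninjected lavage. The tumour list then had 17 of 18 members higher, mitosis 20 of 20, the NK list 21 of 24, the type I interferon list 25 of 27 and the interferon-gamma list 17 of 20, and all 15 B cell markers were lower. Against ID8, the 2 remaining libraries gave 1257 genes higher and 820 lower.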

How the data were processed

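Total RNA of peritoneal lavage pellets, 4 libraries in each of 3 groups, had been sequenced with a ribosome-depleted library kit (Roche KAPA RNA HyperPrep with RiboErase, 100 ng of RNA, per the labels' protocols). The authors deposited 1 table of whole-number read counts per gene. Reads had been converted with bcl2fastq 2.20, aligned with STAR 2.7.9a and counted with featureCounts of Subread 1.6.4 on GRCm38.p6, per the submitters' processing notes. The annotation release and the handling of strand and of reads with several matches were details not given in the sources used here, so genes that overlap, or have near-identical copies, are uncertain.

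From the deposited counts, genes passing filterByExpr over the 12 libraries were scaled by TMM and fitted with edgeR 4.0.16 (glmQLFit and glmQLFTest, robust, R 4.3.3, limma 3.58.1), all 3 groups sharing 1 estimate of the spread. TMM scaling assumes that most genes do not differ, whereas 64.5% of tested genes were called here against uninjected lavage. A value is thus relative to the whole library, and the median of 0.00 over all tested genes depends on the scaling. It was 0.92 with pan-leukocyte scaling. List levels are means of log2(CPM + 0.5). The labels call the samples biological replicates and no group shares an animal by label. P-values set a group difference against the spread between libraries within groups, estimated over all 3 groups together. This shared estimate does not separate the spread of ID8-FSHR, where the SD was larger than in uninjected lavage for 69.0% of genes. The members and the 36 gene lists (662 distinct symbols, 638 matched by symbol, 22 by gene ID, 2 unmatched) were chosen with earlier results of these data known. The genes named are the key genes of each list, the 20 largest increases and decreases among genes with a mean log2 CPM of 3 or more, the largest called change of each list in each direction, and the 10 genes of largest spread and 10 farthest from the other libraries in replicates 1 and 2. For the 20 largest changes, called well-expressed above, predicted genes and genes of the mitochondrial genome were left out and only groups that did not overlap were used. Gbp2, Krt7, Lrrn4, Emcn and Cldn5 were chosen after their values were seen. DESeq2 1.42.0, RLE and pan-leukocyte scaling, other filters, the 2 groups alone, a replicate block and leaving out each library were alternatives. Promoters and gene positions are from RefSeq and GENCODE M21 on GRCm38.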

Additional observations from a re-analysis of the deposited data

Results flagged for a closer look

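In each group of 4 libraries, a library was marked when its gap to the nearest other, on the log2 scale, was large against the range of the group by Dixon's 95% criterion. Among list levels and genes named above, 19 of 298 groups had such a library (6.38%). Chance marks about 1 in 20 where genes are independent and not chosen by their values. Some genes here were named for lying far from the other libraries and many move together, so the share cannot be read against that rate. ID8-FSHR replicate 2 was low in Defb29 (8.41 CPM), Wt1 (187 CPM), Mal2 (88.6 CPM), Hoxa13 (4.69 CPM), Pnlip (7.98 CPM), Raet1e (6.05 CPM), Vangl1 (13.6 CPM), Nr5a1 (19.1 CPM) and F3 (4.58 CPM), genes that were all far lower or at 0 in uninjected lavage. ID8-FSHR replicate 1 was low in Siglec1 (37.2 CPM) and high in Il12a (0.648 CPM), and replicate 4 was low in Alox15 (1092 CPM). In uninjected lavage replicate 4 was high in Wt1 (0.741 CPM) and in Nr5a1 (0.218 CPM, against 0 in the other 3). Uninjected replicate 1 was low in Cd28 (1.85 CPM) and Plat (0.0592 CPM) and high in C3 (443 CPM) and Alox15 (6237 CPM), and replicate 2 was low in Marco (235 CPM).

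For 28 of 113 named genes the change against uninjected lavage differed between ID8-FSHR and ID8 by edgeR's quasi-likelihood test, adjusted over all genes. Over all tested genes 6.04% were higher and 5.56% lower. The lists behind the named genes were chosen with earlier results of these data known, so the count cannot be read against these shares. The log2 difference was positive for the mitosis genes Cdk1 (1.62), Top2a (1.84), Ccnb1 (2.10) and Mki67 (1.89). It was positive for the NK and T cell genes Ncr1 (2.34), Gzma (2.73), Gzmb (2.36), Prf1 (2.34), Cd3e (1.10), Cd28 (1.47), Foxp3 (1.43), Tnfrsf9 (2.12) and Ctla4 (1.83). The same held for Ccl5 (1.38), Ly6c2 (2.10), Aspa (0.77), C3 (1.40) and Tfrc (0.86). It was negative for the tumour genes Krt19 (-1.14), Msln (-1.24), Lrrn4 (-1.80) and Pnliprp1 (-1.72). It was also negative for Cxcl13 (-1.88), Apoe (-1.66), F13a1 (-1.58), Csf1 (-0.60), Scd1 (-0.91) and Elovl6 (-0.69). Leaving out 1 of the 8 tumour libraries at a time, 12 of the 28 kept their call in all 8 fits: the 4 mitosis genes, Lrrn4, Msln, Foxp3, Cd28, Apoe, Scd1, Elovl6 and Tfrc. The other 16 lost it in 1 or more fits (adjusted p 0.0501 to 0.162), of which 15 did without ID8 replicate 3, 15 without ID8 replicate 4, 13 without ID8-FSHR replicate 2 and 12 without ID8-FSHR replicate 4. It was 8 without ID8 replicate 1, 6 without ID8 replicate 2 and 5 without ID8-FSHR replicate 3. Gzmb and Cxcl13 lost the call in 7 of the 8 fits, Pnliprp1, Cd3e and Aspa in 6, Prf1, Tnfrsf9 and Ccl5 in 5, Krt19, Ncr1, Gzma and Ly6c2 in 4, Ctla4, F13a1 and C3 in 3, and Csf1 in 2. The log2 difference of Cxcl13 was -2.81 without ID8-FSHR replicate 1.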

How the results depend on the processing

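Counts against uninjected lavage kept within 1.5 times of their value except in 2 settings. Scaling to pan-leukocyte counts, which moved the median log2 fold change of all genes to 0.92, gave 11599 genes higher and 1070 lower, 310 of them lower at least 4-fold, so that 91.55% of calls were higher against 52.55%. A minimum of 1 CPM in 4 libraries gave 442 lower at least 4-fold. Against ID8, pan-leukocyte scaling gave 308 higher, DESeq2 1480 lower and a fit of the 2 groups alone 604 lower. Leaving out 1 library gave 5468 to 6475 higher, 4691 to 4887 lower, 2324 to 2540 higher at least 4-fold and 758 to 872 lower at least 4-fold against uninjected lavage. Against ID8 it gave 555 (without ID8 replicate 4) to 1731 (without ID8-FSHR replicate 1) higher and 406 to 1405 lower, with 569 and 466 without ID8 replicate 3, 494 lower without ID8 replicate 1, and 636 and 553 without ID8-FSHR replicate 4. The cause of these shifts was not tested. With pan-leukocyte scaling the log2 fold change turned positive for Krt7 (0.85), Cd28 (0.79), Timd4 (0.0707), Adgre1 (0.43), Ccr2 (0.46) and Ciita (0.61). Mgl2 turned to -1.26 without ID8-FSHR replicate 2 and to -1.62 without replicates 1 and 2, an alternative chosen after seeing the data. Same-numbered libraries did not deviate together (correlations with ID8-FSHR of -0.117 to 0.041 for uninjected and -0.217 to 0.352 for ID8), so the numbers were taken as names. With the replicate number as a block, 5574 genes were higher and 5092 lower than in uninjected lavage, and 860 and 916 than in ID8. Values near 3 counts, 0.0474 to 0.0653 CPM, cannot show a difference at this depth.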

Other observations

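In uninjected replicate 4, Nr5a1 was at 0.218 CPM and had 0 counts in the other 3. Wt1 was at 0.741 CPM there against 0.283 to 0.296 CPM in the other 3, and the haemoglobin gene Hbb-bs at 59.9 CPM against 0.513 to 6.48 CPM.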
